A study of Arabidopsis thaliana with 25 samples.

Results

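The genes AT1G26380, AT1G26410 and AT1G26420 lie close together on chromosome 1 of Arabidopsis and encode berberine-bridge-like oxidases. They are 3 of the 13286 genes to which the probe table used here gave a probe set of their own. Only such genes are called measured below. The 3 genes were chosen by their values over the 12 groups of samples. Their levels and differences are therefore given as a description without a test. Each had 1 probe set, which the probe table assigned to that gene alone. Transcripts were measured in roots and shoots of 10-day-old Col-0 seedlings on 25 Affymetrix ATH1 arrays, 13 of roots and 12 of shoots. The genotypes were MPK6ox, in which the constitutive 35s promoter drives the MAP kinase gene MPK6 in the Col-0 background, mpk6, a knockout with a T-DNA insertion, and WT. Hypoxia was given in 99.998% argon and normoxia was the mock treatment. The length of the treatment is uncertain, since the labels state both 2 h (in the protocol) and 9 h (in hypoxia source names). Each combination of genotype, organ and treatment had 2 arrays, and MPK6ox root hypoxia had 3. The labels number these as biological replicates. They do not give the number of independent lines per genotype. The question of the study was what MPK6 does under hypoxia in each organ.

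Berberine-bridge-like enzymes are secreted enzymes that carry a covalently bound flavin and oxidise their substrate. Many of them, but not all, pass the electrons to oxygen. The family is named for the berberine bridge enzyme of alkaloid synthesis in poppies. Arabidopsis makes no such alkaloids, and its characterised members oxidise other compounds, among them cell wall oligosaccharides, monolignols and tryptophan-derived defence metabolites. AT1G26380 encodes FOX1, which acts in the synthesis of 4-hydroxyindole-3-carbonyl nitrile, a cyanogenic defence compound made from tryptophan. MPK6 is a MAP kinase of defence and stress signalling that phosphorylates, among others, WRKY and ERF transcription factors.

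All 8 measured genes of the low-oxygen list rose with hypoxia in roots and in shoots. The log2 differences were 3.81 to 8.33 and 3.04 to 7.24 (limma, each adjusted p under the 0.05 threshold). Of all probe sets, 9.5% were called higher in roots and 3.14% in shoots. The low-oxygen and marker lists were chosen with earlier results of these data known, so they are no independent check on the samples. The tissue markers followed the organ labels: root minus shoot differences were -5.96 to -4.07 for the 5 measured photosynthesis genes and 0.82 to 3.15 for 3 root genes (EXPA7, EXPA18 and PYK10). In roots hypoxia minus normoxia was 1.49 to 2.08 for the 5 photosynthesis genes and -2.37 to -0.32 for the 3 root genes. The MPK6 transcript was not analysed here, which leaves the genotypes as labelled. The deposited values are log2 expression values, and a fold is the antilog of their difference.

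In MPK6ox seedlings all 3 oxidase genes were higher than in WT in both organs and both treatments. AT1G26380 had log2 values of 10.33, 10.52 and 9.96 in MPK6ox root hypoxia, against 6.44 and 8.74 in WT root hypoxia. In root normoxia it had 11.39 and 11.6 in MPK6ox, against 9.48 and 10.06 in WT. In shoot hypoxia it had 10.07 and 9.95 in MPK6ox, against 8.33 and 7.79 in WT. Every MPK6ox array thus lay above every WT array of its organ and treatment, and shoot normoxia gave the same order, with 10.67 and 10.61 in MPK6ox and 7.91 and 8.12 in WT. Averaged over organs and treatments, AT1G26380 was 2.24 ± 0.27 higher in MPK6ox than in WT (log2 difference ± SE), which is 4.74-fold. The difference was 2.2 ± 0.38 in roots and 2.29 ± 0.4 in shoots.

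AT1G26410, another berberine-bridge-like gene, was higher by 1.37 ± 0.28 in MPK6ox than in WT on average, or 2.58-fold. Its root values were 10.43, 10.75 and 10.23 in MPK6ox hypoxia, against 7.45 and 9.67 in WT hypoxia, and 10.98 and 10.74 in MPK6ox normoxia, against 8.82 and 9.46 in WT normoxia. Its shoot values were 7.76 and 8.12 in MPK6ox hypoxia, against 7.27 and 6.87 in WT hypoxia, and 8.28 and 8.49 in MPK6ox normoxia, against 7.39 and 7.46 in WT normoxia. The arrays of the 2 genotypes did not overlap in any of the 4 pairs of groups, and the gap between the means was larger in roots than in shoots. The log2 difference was 1.82 ± 0.38 in roots and 0.92 ± 0.4 in shoots. The root minus shoot difference of this line effect was 0.9 ± 0.55 for AT1G26410, less than 2 of its standard errors, and it was -0.08 ± 0.55 for AT1G26380. Leaving out 1 array gave 0.35 to 1.45 for AT1G26410 and -0.66 to 0.49 for AT1G26380, with a WT root hypoxia array left out at each end.

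AT1G26420, the last gene of the row, was higher by 1.63 ± 0.34 in MPK6ox than in WT on average, or 3.09-fold. In roots it had 9.3, 10.15 and 9.58 in MPK6ox hypoxia, against 6.94 and 9.05 in WT hypoxia, and 9.58 and 9.67 in MPK6ox normoxia, against 7.94 and 8.72 in WT normoxia. In shoots it had 8.23 and 8.99 in MPK6ox hypoxia, against 7.36 and 7.16 in WT hypoxia, and 8.79 and 8.94 in MPK6ox normoxia, against 6.4 and 6.95 in WT normoxia. The lowest MPK6ox array again exceeded the highest WT array in each pair of groups. The log2 difference was 1.49 ± 0.46 in roots and 1.77 ± 0.48 in shoots, and the root minus shoot difference of this effect was -0.28 ± 0.67, or -0.81 to 0.25 with 1 array left out.

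**Figure D1:**
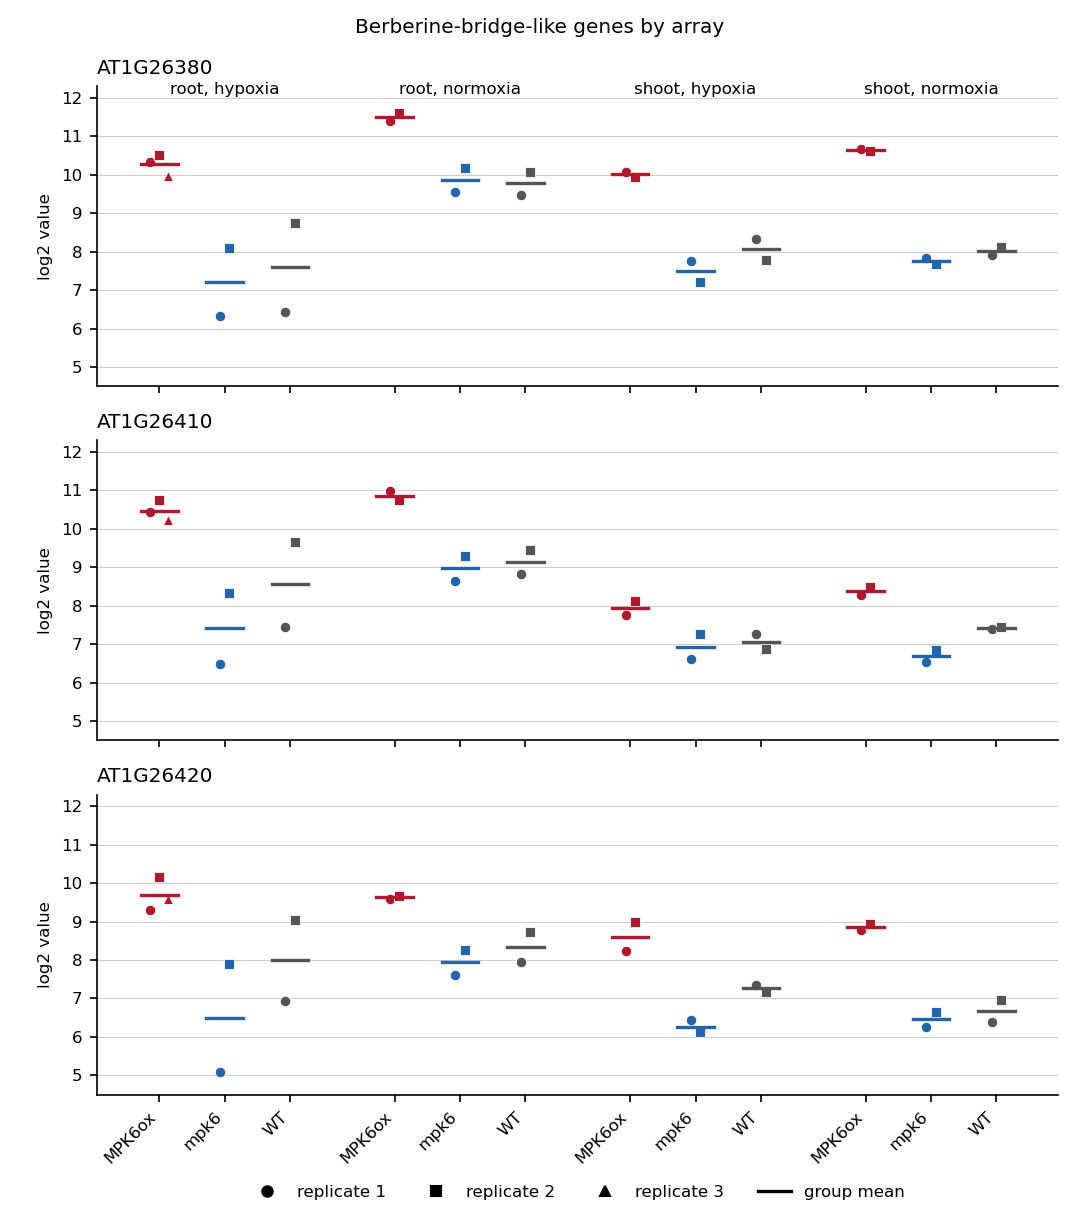
Log2 value of AT1G26380 (top), AT1G26410 (middle) and AT1G26420 (bottom) on each of the 25 arrays, by organ, treatment and genotype, with points for single arrays shaped by replicate number and bars for group means. MPK6ox points lie above the mpk6 and WT points of the same organ and treatment in every block, and replicate 1 of mpk6 and of WT root hypoxia lies well below replicate 2.

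Such an arrangement, with every MPK6ox array above every WT array in all 4 pairs of organ and treatment, was found for 0.813% of the 22746 probe sets and for 3 of the 3 genes. In the limma fit over all probe sets, 1.41% were called higher and 0.884% lower in the average comparison of MPK6ox with WT, and the 3 genes were all called higher. Since the genes were chosen on these values, nothing further is read from these counts. In roots AT1G26380 was higher in MPK6ox than in WT by 2.68 ± 0.51 in hypoxia and 1.73 ± 0.56 in normoxia. In root hypoxia the difference from WT was 1.91 ± 0.52 for AT1G26410 and 1.68 ± 0.63 for AT1G26420. These values rested in large part on WT root hypoxia replicate 1. Without that array they were 1.53 for AT1G26380, 0.8 for AT1G26410 and 0.62 for AT1G26420, and the root average was 1.63, 1.26 and 0.96 in the same order of genes.

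The mpk6 mutant differed less from WT, and its arrays overlapped with those of WT in 2 of the 4 pairs of groups for AT1G26380, in 3 of 4 for AT1G26410 and in 3 of 4 for AT1G26420. AT1G26380 had 6.33 and 8.1 in mpk6 root hypoxia, 9.56 and 10.16 in mpk6 root normoxia, 7.76 and 7.22 in mpk6 shoot hypoxia and 7.83 and 7.68 in mpk6 shoot normoxia. AT1G26410 had 6.49 and 8.32 in mpk6 root hypoxia, 8.64 and 9.29 in mpk6 root normoxia, 6.62 and 7.26 in mpk6 shoot hypoxia and 6.54 and 6.86 in mpk6 shoot normoxia. AT1G26420 had 5.1 and 7.89 in mpk6 root hypoxia, 7.62 and 8.25 in mpk6 root normoxia, 6.43 and 6.12 in mpk6 shoot hypoxia and 6.26 and 6.66 in mpk6 shoot normoxia. The mpk6 means were below the WT means for all 3 genes in every organ and treatment, except for AT1G26380 in root normoxia. The mean log2 difference from WT was -0.28 ± 0.28 for AT1G26380, -0.54 ± 0.28 for AT1G26410 and -0.78 ± 0.34 for AT1G26420. It depended on the 2 low root hypoxia arrays. Without WT root hypoxia replicate 1 it was -0.57, -0.82 and -1.04 for AT1G26380, AT1G26410 and AT1G26420, and without mpk6 root hypoxia replicate 1 it was -0.06, -0.32 and -0.43.

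Set against mpk6, MPK6ox was higher on every array of the same organ and treatment for all 3 genes, an order held by 1.09% of the probe sets. In root hypoxia the difference between MPK6ox and mpk6 was 3.06 ± 0.51 for AT1G26380, 3.06 ± 0.52 for AT1G26410 and 3.18 ± 0.63 for AT1G26420, or 8.31-, 8.35- and 9.08-fold. In root normoxia it was 1.63 ± 0.56, 1.89 ± 0.56 and 1.69 ± 0.69 for the 3 genes in the same order. Without mpk6 root hypoxia replicate 1, the root hypoxia difference was 2.17 for AT1G26380, 2.15 for AT1G26410 and 1.79 for AT1G26420. In shoots MPK6ox exceeded mpk6 by 2.52 in hypoxia and 2.89 in normoxia for AT1G26380, by 1 and 1.69 for AT1G26410 and by 2.34 and 2.41 for AT1G26420.

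With hypoxia, AT1G26380 was lower in the roots of each genotype, and the other genes showed a smaller and less even difference. For AT1G26380 the root hypoxia mean was 10.27 ± 0.29 in MPK6ox (SD, n = 3), against 11.5 ± 0.15 in MPK6ox root normoxia (n = 2), a log2 difference of -1.22 ± 0.51 (SE). In mpk6 roots the means were 7.22 ± 1.25 in hypoxia and 9.86 ± 0.42 in normoxia (SD, n = 2 each), a difference of -2.64 ± 0.56, and in WT roots they were 7.59 ± 1.63 in hypoxia and 9.77 ± 0.41 in normoxia, a difference of -2.18 ± 0.56. Every root hypoxia array of AT1G26380 lay below every root normoxia array of its genotype, which 9.36% of the probe sets showed. Averaged over genotypes the root difference was -2.01 ± 0.32 for AT1G26380, -0.84 ± 0.32 for AT1G26410 and -0.58 ± 0.38 for AT1G26420.

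For AT1G26410 hypoxia and normoxia arrays overlapped in MPK6ox and WT roots but not in mpk6 roots, and the differences were -0.39 ± 0.52 in MPK6ox, -1.56 ± 0.56 in mpk6 and -0.58 ± 0.56 in WT. For AT1G26420 they overlapped in the roots of all 3 genotypes, with differences of 0.05 ± 0.63 in MPK6ox, -1.44 ± 0.69 in mpk6 and -0.33 ± 0.69 in WT. Replicate 1 of WT root hypoxia and replicate 1 of mpk6 root hypoxia weighed heavily on these values. Without the WT array, hypoxia minus normoxia in WT roots was -1.02 for AT1G26380 and turned positive for AT1G26410, at 0.53, and for AT1G26420, at 0.72. Without the mpk6 array, it was -1.76, -0.65 and -0.05 in mpk6 roots for AT1G26380, AT1G26410 and AT1G26420. Without both arrays the average over genotypes was -1.34 for AT1G26380, -0.17 for AT1G26410 and 0.24 for AT1G26420. The tissue markers moved with treatment in the same root arrays. The mean of the 5 photosynthesis genes was 8.29 to 10.12 in MPK6ox, 8.12 to 8.88 in mpk6 and 8.5 to 9.43 in WT root hypoxia, against 6.25 to 6.65, 7.15 to 8.18 and 7.01 to 7.1 in root normoxia of MPK6ox, mpk6 and WT. The mean of the 3 root genes was 9.59 to 10.2, 9.57 to 10.11 and 9.5 to 9.92 in root hypoxia, against 11.34 to 11.4, 11.42 to 11.72 and 11.09 to 11.51 in root normoxia, in the same order of genotypes. Their part in the root differences was not tested, and fewer root cells in a sample cannot be told apart from less transcript per cell. The low arrays, replicate 1 of WT and of mpk6 root hypoxia, had the lower photosynthesis mean of their groups, 8.5 and 8.12. They also had the higher mean of the root genes, 9.92 and 10.11. Replicate 1 of MPK6ox root hypoxia likewise had the lowest photosynthesis mean of its group, 8.29, and the highest root gene mean, 10.2.

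**Figure D2:**
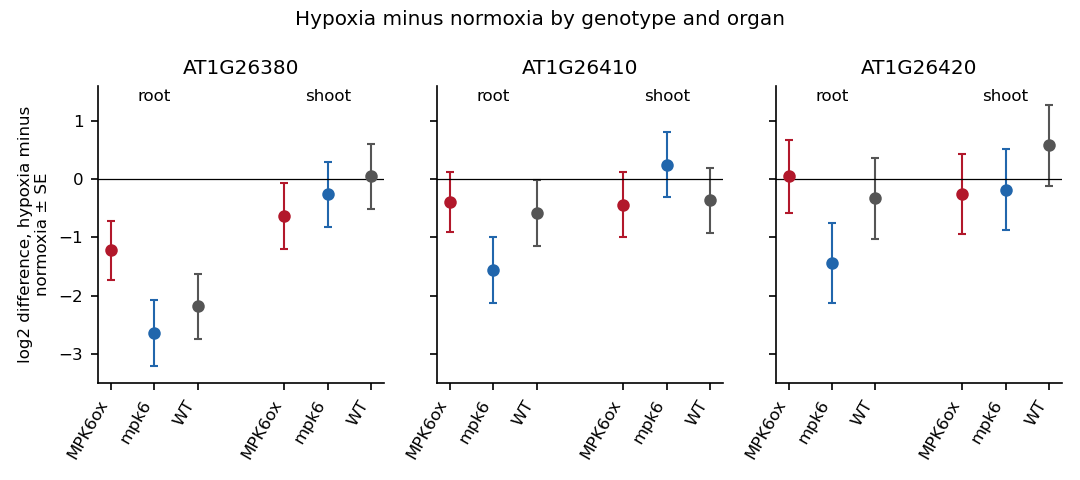
Fitted log2 difference of hypoxia minus normoxia (y axis, ± SE) for AT1G26380, AT1G26410 and AT1G26420 in roots (left of each panel) and shoots (right) of MPK6ox, mpk6 and WT. AT1G26380 lies between -2.64 and -1.22 in the roots of the 3 genotypes, and between -0.63 and 0.05 in their shoots.

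In shoots the average difference with treatment was smaller than its SE for each of the 3 genes. That SE uses a spread shared with roots. Group SDs were 1.25 to 1.97 in WT and mpk6 root hypoxia, against 0.04 to 0.54 in the shoot groups. Hypoxia and normoxia arrays did not overlap for AT1G26380 in MPK6ox shoots (-0.63), AT1G26410 in MPK6ox (-0.44) and WT shoots (-0.36) and AT1G26420 in WT shoots (0.58). In the other shoot pairs they overlapped. The average over genotypes was -0.28 ± 0.32 for AT1G26380, -0.18 ± 0.33 for AT1G26410 and 0.05 ± 0.4 for AT1G26420. Single genotypes ranged from -0.63 ± 0.56 for AT1G26380 in MPK6ox shoots to 0.58 ± 0.69 for AT1G26420 in WT shoots. The hypoxia difference of roots minus that of shoots was -1.73 ± 0.45 for AT1G26380, -0.66 ± 0.45 for AT1G26410 and -0.62 ± 0.55 for AT1G26420. Without both low root hypoxia arrays these were -1.05, 0.01 and 0.19. The difference of the hypoxia effect between MPK6ox and WT roots was 0.95 ± 0.76 for AT1G26380, 0.19 ± 0.76 for AT1G26410 and 0.39 ± 0.93 for AT1G26420. Between mpk6 and WT roots it was -0.47 ± 0.79, -0.98 ± 0.8 and -1.11 ± 0.97, so each of these was smaller than 2 of its standard errors. Leaving out 1 array gave -0.2 to 2.1, -0.92 to 1.3 and -0.67 to 1.44 for MPK6ox against WT, with the sign turned for each gene without WT root hypoxia replicate 1. For mpk6 against WT it gave -1.62 to 0.68, -2.09 to 0.13 and -2.51 to 0.29, with WT and mpk6 root hypoxia arrays at the ends, so no direction is given for these differences.

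Roots carried more transcript of the 3 genes than shoots in normoxia. Every root normoxia array lay above every shoot normoxia array of its genotype for all 3 genes, as it did for 25.9% of the probe sets. Over both treatments the root minus shoot difference was 0.7 ± 0.23 for AT1G26380, 1.82 ± 0.23 for AT1G26410 and 0.99 ± 0.28 for AT1G26420. In WT normoxia it was 1.75 ± 0.56, 1.71 ± 0.56 and 1.65 ± 0.69 in that order of genes. In WT hypoxia the 2 organs overlapped for AT1G26380, at -0.47 ± 0.56, and for AT1G26420, at 0.74 ± 0.69, but not for AT1G26410, at 1.49 ± 0.56. These values turned on the 2 WT root hypoxia arrays: without replicate 1 they were 0.68, 1.79 and 2.6, and without replicate 2 they were -1.62, -0.32 and 0.38, for AT1G26380, AT1G26420 and AT1G26410 in that order. In MPK6ox the excess in roots was largest for AT1G26410, at 2.53 ± 0.52 in hypoxia and 2.48 ± 0.56 in normoxia, and it was 0.26 ± 0.51 and 0.85 ± 0.56 for AT1G26380.

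The order of the 12 group means was led by MPK6ox roots for each gene and ended with mpk6. For AT1G26380 the 4 MPK6ox groups stood first, from 11.5 ± 0.15 in root normoxia to 10.01 ± 0.08 in shoot hypoxia (SD), followed by mpk6 and WT root normoxia at 9.86 ± 0.42 and 9.77 ± 0.41. The arrays of MPK6ox shoot hypoxia, mpk6 root normoxia and WT root normoxia overlapped with their neighbours in this order. The remaining 6 groups, shoots and hypoxic roots of mpk6 and WT, lay between 8.06 ± 0.38 and 7.22 ± 1.25. For AT1G26410 the order followed the organ more closely: the 5 highest groups were roots, from 10.86 ± 0.17 in MPK6ox normoxia to 8.56 ± 1.57 in WT hypoxia, and MPK6ox shoots followed at 8.38 ± 0.15 in normoxia and 7.94 ± 0.26 in hypoxia. The lowest was mpk6 shoot normoxia at 6.7 ± 0.22. For AT1G26420 the 4 MPK6ox groups again came first, from 9.68 ± 0.43 in root hypoxia to 8.61 ± 0.54 in shoot hypoxia, of which the last overlapped with WT root normoxia at 8.33 ± 0.55. Its lowest group was mpk6 shoot hypoxia at 6.27 ± 0.22.

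Pooled over the groups, replicates of the 3 genes differed more than those of most probe sets. Their pooled replicate SD was 0.63 for AT1G26380, 0.63 for AT1G26410 and 0.77 for AT1G26420. These were above those of 99.2%, 99.2% and 99.8% of all probe sets, whose median was 0.183. The pooled values rested largely on WT and mpk6 root hypoxia. Group SDs of the 3 genes were 1.25 to 1.97 there, against 0.04 to 0.55 in the other groups. In roots replicate 2 exceeded replicate 1 in 6 of 6 groups for AT1G26380, by 0.19 to 2.3, and in 6 of 6 for AT1G26420, by 0.09 to 2.79. For AT1G26410 it did so in 5 of 6, with differences of -0.24 to 2.22. Of all probe sets, 6.9% were higher in replicate 2 in all 6 root groups. In shoots replicate 2 was higher in 1 of 6 groups for AT1G26380, 5 of 6 for AT1G26410 and 4 of 6 for AT1G26420. Over the 13 root arrays, deviations from the group means were correlated between the genes, with Pearson's r of 0.945 to 0.987, whereas over the 12 shoot arrays r was -0.286 to 0.349. Without the 4 arrays of mpk6 and WT root hypoxia, r was 0.803 to 0.892 over the 9 remaining root arrays. With 2 arrays a group both deviations are the same size with opposite sign. Over all 25 arrays the values of the genes were correlated at 0.81 to 0.898, points that share genotype, organ and array.

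AT1G26390 and AT1G26400 lie between AT1G26380 and AT1G26410 in the order of genes of the TAIR10.1 annotation, and both also encode berberine-bridge-like proteins. AT1G26390 ran much like its neighbours. It had 10.57, 10.95 and 10.99 in MPK6ox root hypoxia, against 8 and 10 in WT root hypoxia, and 10.87 and 12.04 in MPK6ox root normoxia, against 10.01 and 10.87 in WT root normoxia. In shoots it had 8.48 and 8.67 in MPK6ox hypoxia, against 7.98 and 7.01 in WT hypoxia, and 9.63 and 9.5 in MPK6ox normoxia, against 7.29 and 7.57 in WT normoxia. Its average difference, 1.52 ± 0.39, had a limma adjusted p of 0.0544, just over the 0.05 threshold for a call. The smallest difference among the 3 chosen genes was 1.37. In root hypoxia AT1G26390 was higher in MPK6ox than in mpk6 by 3.59 ± 0.73 (limma adjusted p = 0.0215), but by 2.03 ± 0.7 without mpk6 root hypoxia replicate 1, where the call was lost (adjusted p = 0.55). It was lower with hypoxia in roots on average (-1.43 ± 0.45, limma adjusted p = 0.0276), a call that was lost when either low root hypoxia array was left out (adjusted p = 0.101 without WT replicate 1 and 0.0943 without mpk6 replicate 1) and without replicate 2 of WT, mpk6 or MPK6ox root normoxia (0.0774, 0.0886 and 0.0835).

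AT1G26400 stayed low throughout, at a mean of 4.49 over the arrays, between 4.15 and 4.97, with 7.12% of probe sets lower. Its average difference between MPK6ox and WT was 0.09 ± 0.06 (limma adjusted p = 0.714). Beyond the cluster, 10 further genes were measured among the 10 nearest genes on each side. Their MPK6ox minus WT averages ran from -0.17 to 0.18 with a median of -0.04, and limma called 0 of them, with 2 at an unadjusted p under 0.05. The mpk6 minus WT averages of these 10 ran from -0.25 to 0.21. Whether probe sets of the cluster also take up transcripts of their relatives was not tested.

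**Figure D3:**
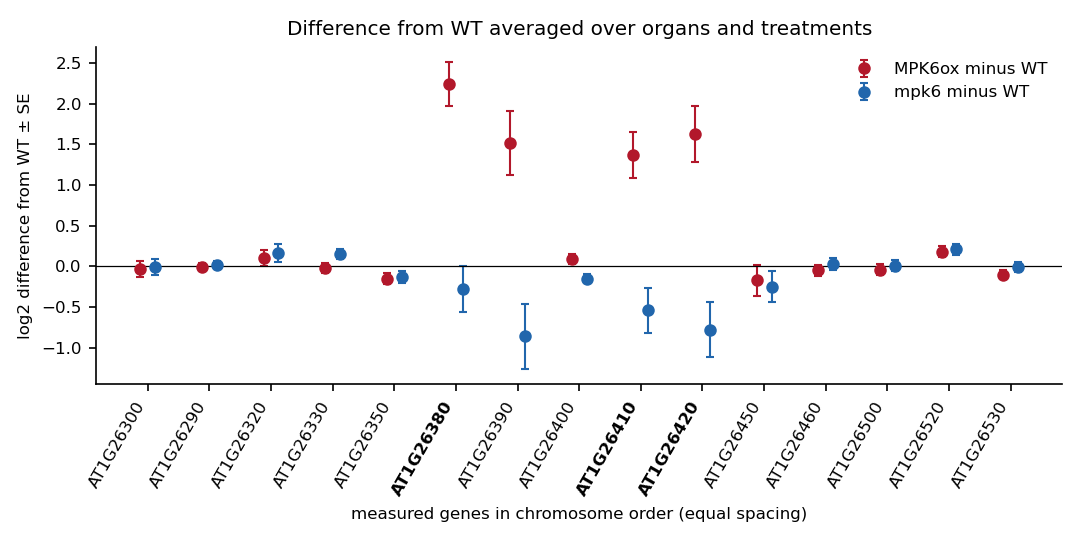
Log2 difference from WT averaged over organs and treatments (y axis, ± SE) of MPK6ox (red) and mpk6 (blue) for the 15 measured genes around the cluster, evenly spaced in chromosome order, with AT1G26380, AT1G26410 and AT1G26420 in bold. These and AT1G26390 lie between 1.37 and 2.24 in MPK6ox, while AT1G26400 and the 10 flanking genes lie between -0.17 and 0.18.

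Of the other genes of the family, 19 of the 24 listed were measured. Averaged over organs and treatments, limma called 2 higher and 0 lower than in WT, against 1.41% higher and 0.884% lower among all probe sets, with 7 at an unadjusted p under 0.05. The family median was 0.04, and it was 0.01 over all probe sets. AT4G20830, known as OGOX1, which oxidises oligogalacturonides released from pectin, was 0.64 ± 0.09 higher in MPK6ox (limma adjusted p = 0.00037). It had 11.92, 11.82 and 11.72 in MPK6ox root hypoxia, against 10.7 and 11.08 in WT root hypoxia, and 10.98 and 11.32 in MPK6ox shoot hypoxia, against 10.46 and 10.79 in WT shoot hypoxia. In normoxia it had 11.9 and 11.66 in MPK6ox roots, against 11.35 and 11.11 in WT roots, and 10.95 and 10.81 in MPK6ox shoots, against 10.43 and 10.25 in WT shoots. The groups did not overlap in any of these 4 pairs. AT5G44390 was 0.25 ± 0.06 higher (limma adjusted p = 0.0309). Its call was lost in 11 of the 25 fits that left out 1 array, each time an MPK6ox or a WT array, and the adjusted p over all alternatives ran from 0.01 to 0.0927. AT4G20860, known as CELLOX, which oxidises cellodextrins, had a similar difference of 0.65 ± 0.18 that did not pass (limma adjusted p = 0.0786), and AT1G30700 had 0.87 ± 0.29 (limma adjusted p = 0.188).

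In roots hypoxia changed several of these 19 genes. Limma called 3 higher and 7 lower than in normoxia, against 9.5% higher and 14.8% lower among all probe sets, with a median of -0.17 over the 19 genes and 0.01 over all probe sets. AT1G30760, which encodes an enzyme that oxidises monolignols, fell by 1.73 ± 0.27 (limma adjusted p = 0.000135). Its means were 7.39 ± 0.35 in MPK6ox, 7.24 ± 0.94 in mpk6 and 8.05 ± 0.05 in WT root hypoxia (SD). In root normoxia they were 9.53 ± 0.44, 8.95 ± 0.41 and 9.39 ± 0.93 in the same order of genotypes (SD). AT5G44410 rose by 0.89 ± 0.11 (limma adjusted p = 1.9e-05) and AT5G44390 fell by 0.46 ± 0.07 (limma adjusted p = 9.21e-05). These 3 calls held in every alternative that tested them. AT5G44390 was dim, at a mean of 5.24 over the arrays with 23.7% of probe sets lower. The fit of the brighter probe sets alone therefore left it out. AT4G20830 fell by 0.42 ± 0.1 on average over genotypes (limma adjusted p = 0.00682), a call lost only without both low root hypoxia arrays (0.0826). By genotype its hypoxia minus normoxia difference in roots was 0.04 ± 0.17 in MPK6ox (limma adjusted p = 0.944), -0.95 ± 0.18 in mpk6 (0.00322, and 0.0622 without mpk6 root hypoxia replicate 1) and -0.34 ± 0.18 in WT (0.361). Limma did not call the difference of this effect between MPK6ox and WT (0.38 ± 0.25, adjusted p = 0.999) or between mpk6 and WT (-0.61 ± 0.26, adjusted p = 0.997). The remaining 6 calls, AT1G26390, AT4G20860, AT5G44380 and AT5G44400 downward and AT1G34575 and AT5G44440 upward, were each lost in 3 or more alternatives. Without WT root normoxia replicate 2 there were 1 higher and 4 lower, without mpk6 root hypoxia replicate 1 there was 1 higher, and without WT root hypoxia replicate 1 there were 4 lower. The shoot and root markers given above moved in the same arrays, and their part was not tested.

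In shoots hypoxia raised AT5G44410 by 0.67 ± 0.12 (limma adjusted p = 0.00117) and lowered AT5G44390 (-0.29 ± 0.07, limma adjusted p = 0.014), the 2 calls among the 19 genes, beside 3.14% of all probe sets higher and 5.28% lower. The second call was lost without MPK6ox shoot hypoxia replicate 2 (limma adjusted p = 0.0568). AT4G20860 at 0.69 ± 0.21 just missed (limma adjusted p = 0.0552, and 0.00889 to 0.186 over 33 alternatives, 11 of which called it). The root and shoot effects of hypoxia differed for 2 of the 19 genes, AT4G20830 by -0.68 ± 0.15 (limma adjusted p = 0.00805) and AT4G20860 by -1.36 ± 0.3 (limma adjusted p = 0.008), both more negative in roots, against 3.23% of probe sets called higher and 4.31% lower. Between organs, 11 of the 19 were called higher in roots and 2 lower, against 34.3% of all probe sets called higher and 29.9% called lower. AT5G44380 had the largest root excess of the family, 3.03 ± 0.11 (limma adjusted p = 7.67e-14), and AT5G44400 and AT2G34810 were lower in roots, at -1.09 ± 0.13 (limma adjusted p = 9.52e-07) and -0.87 ± 0.06 (limma adjusted p = 7.77e-10).

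**Figure D4:**
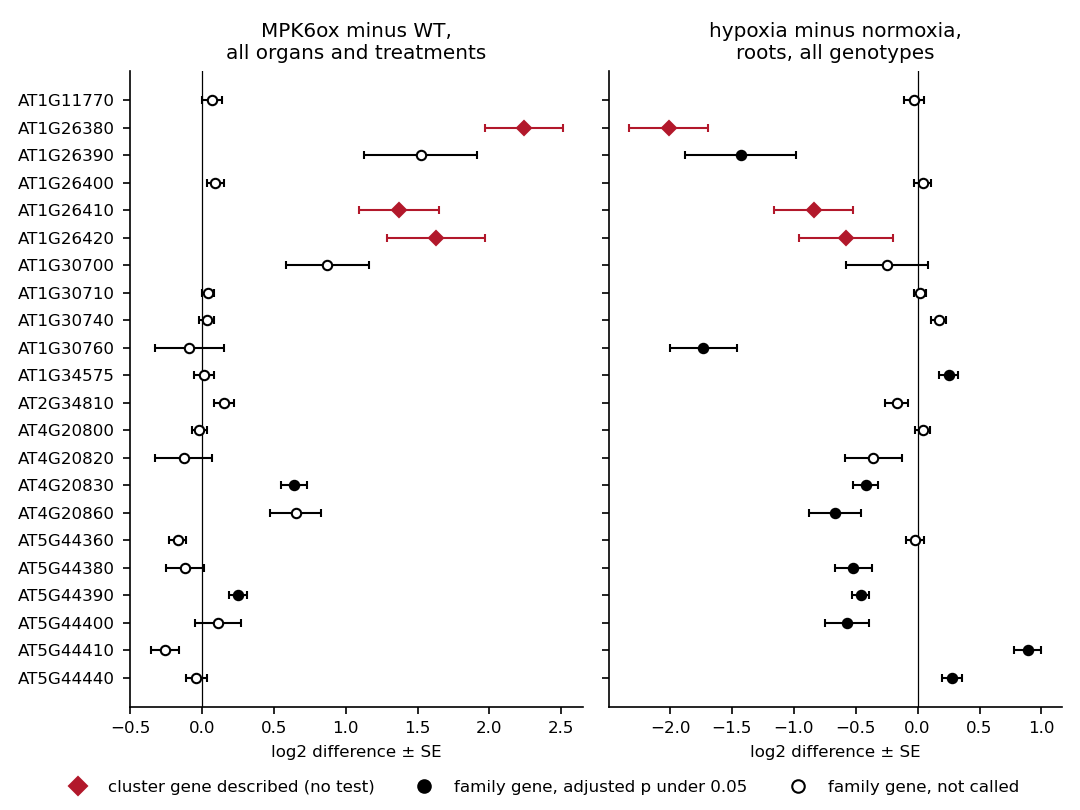
Log2 difference of MPK6ox minus WT averaged over organs and treatments (left, x axis, ± SE) and of hypoxia minus normoxia in roots averaged over genotypes (right) for the 22 measured genes of the family, with red diamonds for AT1G26380, AT1G26410 and AT1G26420, filled circles for other genes with an adjusted p under 0.05 and open circles for the rest. In the left panel the 3 genes and AT1G26390 lie at 1.37 or above, and the other family genes lie between -0.26 and 0.87.

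Of the defence lists around these genes, the probe table named only a small part. It left 8730 probe sets without a named gene, and whether these read other list genes was not checked. Of 27 genes of tryptophan-derived defence compounds, 1 was measured: UGT74B1 (AT1G24100), a glucosyltransferase of glucosinolate synthesis, differed by 0.12 ± 0.13 between MPK6ox and WT (limma adjusted p = 0.854) and fell by 0.94 ± 0.15 with hypoxia in roots (limma adjusted p = 0.000217). Of 27 genes of the pathogen and elicitor response, 4 were measured, and their MPK6ox minus WT averages ran from -0.15 to 0.27 with a median of 0.08 (limma called 0, with 0 at an unadjusted p under 0.05). With hypoxia in roots WRKY22 (AT4G01250), a transcription factor of early defence, rose by 4.08 ± 0.27 (limma adjusted p = 1.02e-08), and the glutaredoxin GRX480 (AT1G28480) rose by 1 ± 0.24 (limma adjusted p = 0.00523). WRKY53 (AT4G23810), a transcription factor of defence and senescence, fell by 1.44 ± 0.2 (limma adjusted p = 4.21e-05). The zinc finger gene STZ (AT1G27730) had -0.07 ± 0.29 in roots and rose by 1.56 ± 0.3 with hypoxia in shoots (limma adjusted p = 0.00254).

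The genes whose values ran most like those of the 3 oxidase genes over the 25 arrays were found by Pearson's r among the 3220 single-gene probe sets with an SD of at least 0.5. For AT1G26380 these were AT5G38900 (r = 0.892), CCOAMT, a caffeoyl-CoA O-methyltransferase gene (0.87), AT1G26390 (0.867), AT2G04400 (0.861) and AT3G18250 (0.834). For AT1G26420 they were CCOAMT (0.968), AT5G38900 (0.961), AT3G18250 (0.949), AT1G26390 (0.922) and AT3G54150 (0.906), so 4 of the 5 were the same. For AT1G26410 they were AT4G26120 (0.945), AT1G74360, a receptor-like kinase gene (0.944), CHI, a chitinase gene (0.938), YLS5 (0.929) and AT1G26390 (0.928). With the mean of each organ subtracted, r was 0.88 for CCOAMT and 0.899 for AT5G38900 with AT1G26380, and 0.934 for AT4G26120 with AT1G26410. These arrays share genotype and organ, so the values describe a common pattern and carry no test.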

How the data were processed

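The deposited table holds 1 log2 expression value per probe set and array, an output of RMA by the authors according to the submitters' processing notes, in which no version is given. RNA was labelled in 2 cycles with biotin, per the labels' protocols. Values ran from 3.6 to 15.1 and array medians from 6.87 to 7.07. They were used as deposited. Signal over background was not assessed, arrays have no depth, and the 2 or 3 arrays a group limit the precision. A p-value sets a difference only against the spread between replicates of these samples, moderated over all probe sets.

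Of 22810 probe sets, 64 control probe sets were left out and 22746 tested. The probe table gave 13513 of these 1 gene and 503 several, and the other 8730 were not named here. 13436 matched a gene of the RefSeq annotation (TAIR10.1), which gave 13286 different genes and the gene order. No genome build is given in the sources used here, so no coordinates are printed. The family sequence comparison was not run, because no sequences were used here.

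Limma 3.58.1 in R 4.3.3 fitted the 12 group means and took contrasts with moderated variances (residual degrees of freedom 13, prior 3.41), with Benjamini-Hochberg adjustment over all probe sets within a comparison. On simulated data the fit was checked for recovery of known changes. The genes and lists were chosen with earlier results of these data known. Named were the 3 genes, the measured list genes, the chromosome neighbours and the 5 genes most like each by Pearson's r. A gene with several probe sets was read from the one with the highest mean. Measured and listed were 8 of 19 low-oxygen, 5 of 11 shoot and 3 of 12 root genes. Alternatives were each array left out in turn, array weights, trend and robust settings, the 17059 brighter probe sets alone, median centring, quantile normalization, separate fits of the organs and the replicate number as a block. One was added after the data were seen: both low root hypoxia arrays left out. Figures used Python 3.11.15 with matplotlib 3.10.9.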

Additional observations from a re-analysis of the deposited data

Results flagged for a closer look

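Of the measured family, pathogen and elicitor genes outside the chosen 3, 5 differed in the hypoxia effect between roots and shoots. This is by the limma test of the difference itself (root effect minus shoot effect, averaged over genotypes). Of all probe sets, that test called 3.23% higher and 4.31% lower. It also called 6 of the 8 low-oxygen and all 5 photosynthesis genes higher, and 2 of the 3 root genes lower. The difference was -0.68 ± 0.15 for AT4G20830 (adjusted p = 0.00805), with -0.42 in roots and 0.27 in shoots. For AT4G20860 it was -1.36 ± 0.3 (adjusted p = 0.008), with -0.67 in roots and 0.69 in shoots. Among the measured pathogen and elicitor genes it was -1.35 ± 0.29 for WRKY53 (AT4G23810, adjusted p = 0.00677), 2.19 ± 0.39 for WRKY22 (AT4G01250, adjusted p = 0.00211) and -1.63 ± 0.42 for STZ (AT1G27730, adjusted p = 0.0222). The photosynthesis and root markers moved with hypoxia in the same root arrays, and their part was not tested.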

How the results depend on the processing

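The MPK6ox minus WT average stayed positive for the 3 genes in all 32 alternatives fitted, from 1.96 to 2.53 for AT1G26380, 1.09 to 1.64 for AT1G26410 and 1.36 to 1.89 for AT1G26420, which are also the ranges over leaving out 1 array. The mpk6 minus WT average ran from -0.57 to 0.01 for AT1G26380, -0.82 to -0.27 for AT1G26410 and -1.12 to -0.43 for AT1G26420 when 1 array was left out. The hypoxia difference in roots ran from -2.4 to -1.63, -1.21 to -0.48 and -1.04 to -0.11 in the same order of genes, and without both low root hypoxia arrays it was -1.34, -0.17 and 0.24, the last with the sign turned. The number of other family genes called higher in MPK6ox than in WT was 2, 1 to 3 when 1 array was left out, and 5 with the replicate numbers as a block. In that fit with the replicate block AT1G26390, AT1G30700 and AT4G20860 joined the 2 others. The labels number biological replicates but do not say whether equal numbers were paired across groups. Over the 66 pairs of groups the difference between replicates 1 and 2 correlated at -0.034 to 0.674 (median 0.302), above 0.1 in 55 pairs, and above 0.1 in 27 of the 30 pairs within an organ (median 0.432), so the pairing stays an alternative. With median centring AT1G26390 passed in the MPK6ox average (limma adjusted p = 0.042), as it did with the replicate block (0.0398) and array weights (0.0258). Trend and robust settings (0.0388) and leaving out the dim probe sets (0.0364) also gave a call, but quantile normalization did not (0.0828). The gene stayed uncalled in 23 of the 32 alternatives. Its difference ran from 1.27 to 1.76 when 1 array was left out. The SE of that difference uses a spread shared over all groups. Among them is mpk6 root hypoxia, which is outside this comparison and had an SD of 2.21 for AT1G26390. Averages over organs cannot be had from separate fits. The genes most like AT1G26380 shared 2 of 5 with the list after organ means were subtracted, and 3 of 5 by Spearman's rho.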
